A study of Mus musculus with 6 samples.

Results

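The genes Itga1, Itga5, Itga8, Itga9, Itga11, Itgav, Itgb1, Itgb3, Itgb5 and Itgb8 encode integrin subunits through which stellate cells and myofibroblasts hold on to extracellular matrix. They were chosen by symbol, from probe sets annotated with a single gene, and make up 10 of the 22180 genes represented in this way. All 10 were among the 15526 genes tested, which had a mean log2 signal above 4.70. Itgav had 2 probe sets, with mean log2 signals of 10.5 and 3.98, and the brighter one stood for the gene.

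Expression was measured on microarrays in mouse hepatic stellate cells, liver pericytes that store vitamin A and that become contractile myofibroblasts, rich in collagen, when cultured. There were 3 states at 2 ages and 1 array for each of the 6 groups. PRI-724 cells had been cultured for more than 20 days and received C-82, the active form of the CBP/beta-catenin inhibitor PRI-724, at 10 µM in dimethyl sulfoxide. Vehicle cells had been cultured likewise and received vehicle without C-82. Quiescent cells were untreated and were taken 12 h after plating. Each state was prepared from old mice of 6 to 9 months and from young mice of 8 to 11 weeks. Every sample pooled primary cells from the normal livers of 5 mice, kept on uncoated plastic, and the length of exposure to C-82 is not given in the sources used here. The quiescent cells had thus also been plated, and 1 pool for each group leaves no measure of the spread between pools of a kind.

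Integrins are pairs of an alpha and a beta subunit, and the pairing sets what the cell binds. Itga1 and Itga11 pair with Itgb1 as collagen receptors, Itga5 with Itgb1 as the main fibronectin receptor, Itga8 with Itgb1 as a receptor for nephronectin and other ligands with an RGD motif, and Itga9 with Itgb1 as a receptor for tenascin-C and osteopontin. Itgav pairs with Itgb1, Itgb3, Itgb5 or Itgb8, and these receptors bind vitronectin, fibronectin or latent TGF-beta, the stored form of the main fibrogenic cytokine, which several of them can release in active form. In the liver, Itgav-containing integrins of stellate cells are known for this release in fibrosis.

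Values are log2 signals, on which a difference of 1 is a 2-fold change. Differences between states are means of an old and a young pair (n = 2 pairs) from a limma model of age and state. Each standard error (SE) combines how far the ages disagreed for that gene over the 3 states with the spread of genes of like signal. The first has 2 degrees of freedom and the second 7.76, so the second weighs more. A gene is called where its Benjamini-Hochberg adjusted p over the 15526 tested genes is under 0.05. The young PRI-724 array had the narrowest signals, with an interquartile range over tested genes of 1.71 log2 units against 2.11 to 2.43 on the other 5. In the young pair the PRI-724 minus vehicle difference had a median of -0.42 in the brightest 25% of tested genes and 0.37 in the dimmest 25%, while in the old pair both medians were 0.00. Of the 10 subunits, 7 lie in the brightest 25%, Itga11 and Itgb8 in the dimmest 25%, and Itga8 in the next dimmest. In these bulk samples, fewer cells of a type and less RNA per cell cannot be told apart.

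**Figure D1:**
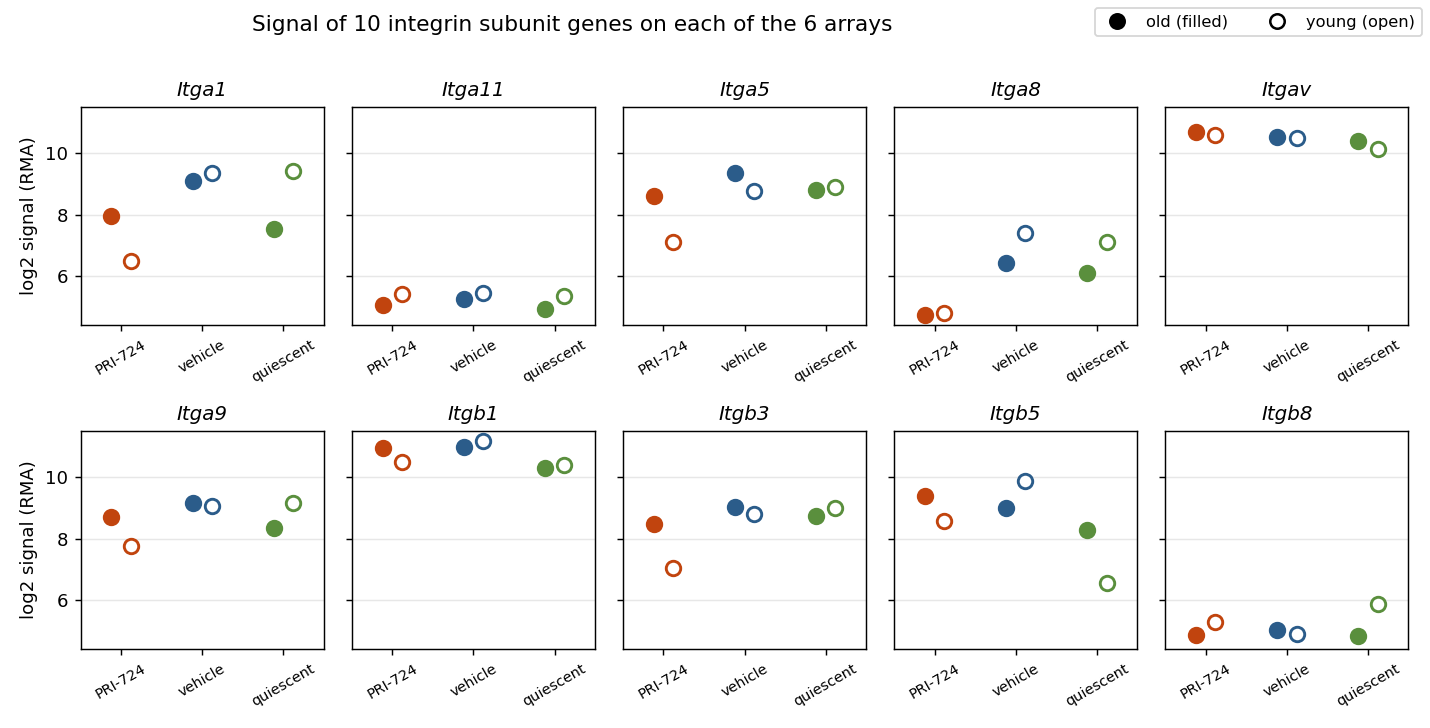
Log2 signal (vertical axis) of the 10 subunit genes on the 6 arrays, by state along the horizontal axis, with old cells as filled and young cells as open points. Itga8 lies below 5 in both PRI-724 samples and above 6 in the other 4 samples, and the lowest Itgb5 value is that of young quiescent cells at 6.56. Each probe set has its own brightness, so levels compare within a panel only.

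With activation in culture, Itgb5 rose and the other 9 subunits did not meet the threshold, and after PRI-724 Itga8 fell and the other 9 did not. Among all tested genes, 4.61% rose and 1.26% fell in vehicle against quiescent cells, and 1 of 10 subunits rose and 0 fell there, with 2 at an unadjusted p under 0.05, as were 22.4% of tested genes. In PRI-724 against vehicle cells 0.271% of tested genes rose and 1.93% fell, beside 0 and 1 of the 10 subunits, with 5 at an unadjusted p under 0.05, as were 15.5% of tested genes. In PRI-724 against quiescent cells 1.28% of tested genes rose and 2.43% fell, beside 0 and 1 subunits, with 4 at an unadjusted p under 0.05, as were 16.3% of tested genes. The 3 comparisons share arrays.

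Itga8, the RGD-binding alpha subunit that is characteristic of pericytes and contractile cells, had the clearest response to the inhibitor. Its log2 signal was 4.72 in old and 4.81 in young PRI-724 cells, 6.42 in old and 7.39 in young vehicle cells, and 6.12 in old and 7.10 in young quiescent cells. Both PRI-724 samples lay below the other 4 and close to the signal limit for testing. Itga8 fell by 2.14 ± 0.30 log2 units (SE, n = 2 pairs) in PRI-724 against vehicle cells, or 4.42-fold, with an adjusted p of 0.00667 (limma), and was 3.24-fold lower in the old and 6.01-fold lower in the young pair. Against quiescent cells it fell by 1.85 ± 0.30 (limma, adjusted p = 0.00918), with PRI-724 cells 2.64-fold lower in the old and 4.91-fold lower in the young pair. Vehicle and quiescent cells differed by 0.29 ± 0.30 (limma, adjusted p = 0.609), with pair differences of 0.30 in old and 0.29 in young cells. Without the young PRI-724 array the PRI-724 minus vehicle difference was -1.70 with an adjusted p of 0.284, and none of the 15526 genes was called in that fit. The call against vehicle was also lost after quantile normalization of the tested genes (-2.03, adjusted p = 0.0914) and kept after cyclic loess (-2.05, adjusted p = 0.0420), and the call against quiescent cells was lost without either PRI-724 array (-1.40 with an adjusted p of 0.135 without the young one, -2.30 with an adjusted p of 0.0520 without the old one).

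Itga1, the alpha subunit of a receptor for collagens, stood at 7.95 in old and 6.49 in young PRI-724 cells, 9.09 in old and 9.38 in young vehicle cells, and 7.55 in old and 9.42 in young quiescent cells. PRI-724 cells lay below vehicle cells at both ages, by 2.20-fold in the old and 7.41-fold in the young pair, but the old quiescent sample lay below the old PRI-724 sample. The mean difference from vehicle was -2.01 ± 0.59 (limma, adjusted p = 0.135), and its interval at 95% confidence ran from -3.34 to -0.69. With the young PRI-724 array left out the difference was -0.74 (adjusted p = 0.910), and with the old one left out it was -3.28 (adjusted p = 0.0649). In vehicle against quiescent cells the old pair differed by 1.54 and the young pair by -0.04, for a mean of 0.75 ± 0.59 (limma, adjusted p = 0.504). Itga1 was called against vehicle (adjusted p = 1.6e-05) where only the arrays of PRI-724 and vehicle cells entered, a fit with 1 residual degree of freedom in which limma gave genes of equal signal one common spread. Itga11, the fibrillar collagen receptor subunit of fibroblasts, ranged from 4.95 to 5.45 over the 6 arrays, and its state differences of 0.20 ± 0.24, -0.10 ± 0.24 and 0.10 ± 0.24 were not called.

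Itga5 and Itgb3 had a like profile over the arrays. Itga5, the alpha subunit of the fibronectin receptor, had signals of 8.62 in old and 7.11 in young PRI-724 cells, 9.37 in old and 8.76 in young vehicle cells, and 8.81 in old and 8.91 in young quiescent cells. Itgb3, a vitronectin receptor subunit also abundant in platelets, had signals of 8.49 in old and 7.05 in young PRI-724 cells, 9.05 in old and 8.81 in young vehicle cells, and 8.74 in old and 9.00 in young quiescent cells. For both genes the young PRI-724 sample was the lowest of the 6 and the old PRI-724 sample lay within 0.3 of old quiescent cells. The PRI-724 minus vehicle difference was -1.20 ± 0.37 for Itga5 (limma, adjusted p = 0.147) and -1.16 ± 0.38 for Itgb3 (limma, adjusted p = 0.181), with old pairs at -0.75 and -0.55 and young pairs at -1.65 and -1.77. Without the young PRI-724 array these differences were -0.57 and -0.43, and without the old one -1.83 and -1.89. Itga9, the tenascin-C receptor subunit, had signals of 8.69 in old and 7.76 in young PRI-724 cells, 9.17 in old and 9.05 in young vehicle cells, and 8.36 in old and 9.16 in young quiescent cells, with a PRI-724 minus vehicle difference of -0.88 ± 0.38 (limma, adjusted p = 0.30), which was -0.25 without the young and -1.52 without the old PRI-724 array.

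Itgb5, which with Itgav forms a vitronectin receptor that can release TGF-beta, was the subunit called with activation. Its signal was 9.38 in old and 8.58 in young PRI-724 cells, 9.00 in old and 9.88 in young vehicle cells, and 8.28 in old and 6.56 in young quiescent cells. Both quiescent samples lay below the other 4, and the 2 quiescent samples were 1.71 apart. Itgb5 rose by 2.02 ± 0.49 in vehicle against quiescent cells, or 4.06-fold, with an adjusted p of 0.0430 (limma) and an interval from 0.92 to 3.12 at 95% confidence. The size differed between ages, at 1.65-fold in the old and 9.96-fold in the young pair, and this difference between the pairs was not tested. The call was lost after cyclic loess (1.84, adjusted p = 0.109) and quantile normalization (1.80, adjusted p = 0.122). It was also lost without the young quiescent array (1.14, adjusted p = 0.146), the young vehicle array (0.96, adjusted p = 0.544), the young PRI-724 array (adjusted p = 0.129) or the old PRI-724 array (adjusted p = 0.130). The difference was larger, at 2.90 without the old quiescent array and 3.09 without the old vehicle array, and the call was kept. Those 2 fits had 1 residual degree of freedom and a spread taken almost wholly from all genes of equal signal. In PRI-724 against quiescent cells Itgb5 differed by 1.56 ± 0.49 (limma, adjusted p = 0.130), 2.15-fold in the old and 4.06-fold in the young pair, and against vehicle by -0.46 ± 0.49, with 0.38 in the old and -1.29 in the young pair. Beside the Itgb5 call, 6 of 9 myofibroblast markers rose in vehicle against quiescent cells, among them the smooth muscle actin gene Acta2 (3.66 ± 0.41). Of 8 mesothelial markers 3 rose, namely Upk1b (2.48 ± 0.28), Lrrn4 (2.06 ± 0.27) and Gpm6a (1.24 ± 0.28), and 3 of 12 hepatocyte markers fell. Among all tested genes, 4.61% rose and 1.26% fell there. The mean log2 signal of the hepatocyte list was 6.64 in old and 5.11 in young vehicle cells, against 9.19 in old and 6.29 in young quiescent cells, and that of the mesothelial list was 7.22 in old and 7.03 in young vehicle cells, against 6.34 in old and 6.14 in young quiescent cells. Their part in the Itgb5 result was not tested.

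Itgav and Itgb1, the shared partners of most of the other subunits, were called in no comparison. Itgav had signals of 10.68 in old and 10.60 in young PRI-724 cells, 10.53 in old and 10.51 in young vehicle cells, and 10.40 in old and 10.14 in young quiescent cells. Its 6 values span 0.54, and PRI-724 minus vehicle was 0.12 ± 0.20 with an interval from -0.33 to 0.56 (limma, adjusted p = 0.803). Itgb1 had signals of 10.94 in old and 10.48 in young PRI-724 cells, 10.98 in old and 11.19 in young vehicle cells, and 10.31 in old and 10.40 in young quiescent cells, a span of 0.89. Both vehicle samples were above both quiescent samples, by 0.68 in the old and 0.80 in the young pair, for a mean of 0.74 ± 0.22 that missed the threshold (limma, adjusted p = 0.0798). After PRI-724 the Itgb1 difference from vehicle was -0.38 ± 0.22 (limma, adjusted p = 0.447), with -0.04 in the old pair. Itgb8, another beta partner of Itgav, lay between 4.82 and 5.27 in 5 samples and at 5.87 in young quiescent cells, and was called in no comparison.

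**Figure D2:**
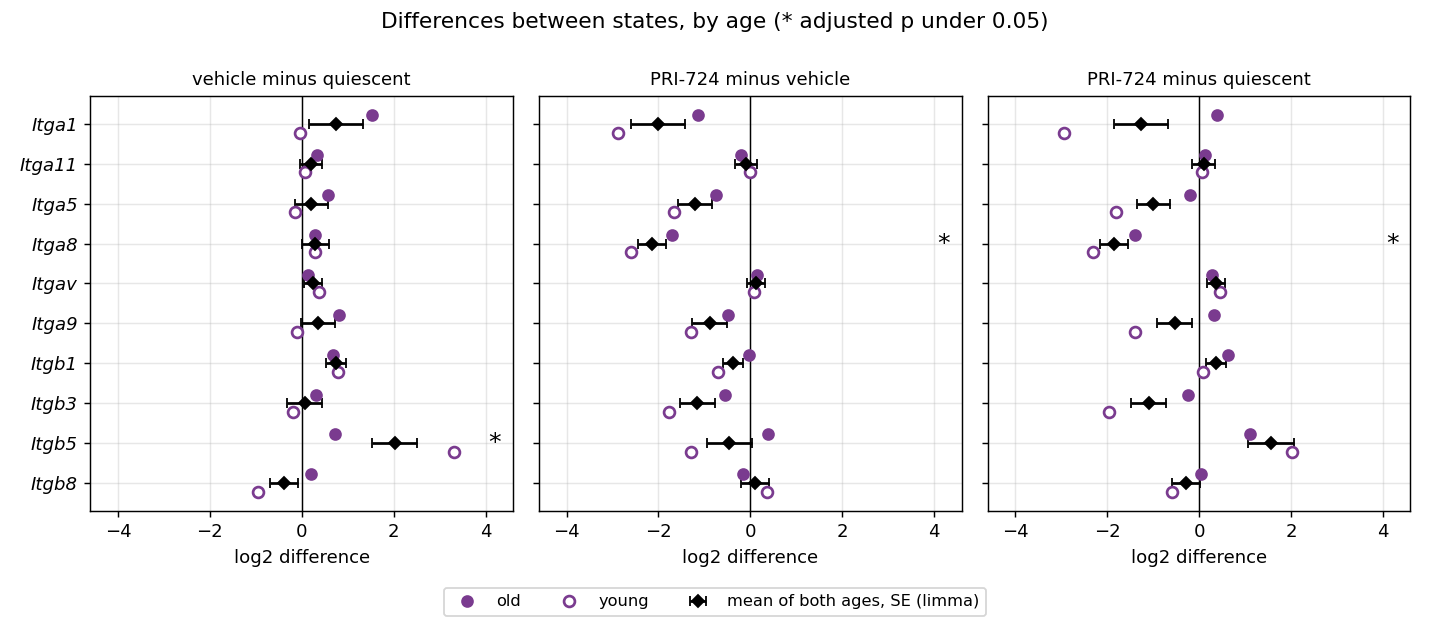
Log2 differences of the 10 subunits between states, in panels for vehicle minus quiescent, PRI-724 minus vehicle and PRI-724 minus quiescent, with old pairs as filled and young pairs as open circles, black diamonds for the mean ± SE, and an asterisk for an adjusted p under 0.05. Itga8 is marked in both PRI-724 panels, at -2.14 and -1.85, and Itgb5 in the vehicle panel, at 2.02. The old and young circles of Itga1 are farthest apart in the third panel, at 0.40 and -2.93.

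The subunits lay lower after PRI-724 more in the young than in the old pair. The median PRI-724 minus vehicle difference over the 10 was -0.67, against -0.05 over all tested genes, and within ages it was -0.34 in old and -1.29 in young cells, against -0.01 and -0.14 over all tested genes. The young difference was larger in size for 8 of 10 subunits. At least 2-fold lower values were found for 2 subunits, Itga1 and Itga8, in the old pair, for 6 in the young pair and for the same 2 in both. Among tested genes, 2.84% were at least 2-fold lower in the old pair, 12.3% in the young pair and 2.36% in both. The narrower signal range of the young PRI-724 array moves with this, and its part was not tested. In vehicle against quiescent cells the median was 0.27, against 0.04 over all tested genes, and 0 subunits were at least 2-fold higher in both pairs, beside 4.06% of tested genes. In PRI-724 against quiescent cells Itgb5 was at least 2-fold higher in both pairs, beside 1.42% of tested genes, and Itga8 at least 2-fold lower in both, beside 2.22%.

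No subunit was called between old and young cells, with 2 of 10 at an unadjusted p under 0.05, beside 10.4% of tested genes, where 0.264% of tested genes were called higher and 0.251% lower in old cells (limma, n = 3 pairs of states). The Itga8 signals in PRI-724 cells, 4.72 in old and 4.81 in young, lay close to the signal limit for testing. Itga8 had an old minus young difference of -0.68 ± 0.24 (limma, adjusted p = 0.362), with -0.08 in PRI-724, -0.97 in vehicle and -0.98 in quiescent cells. Itga5 had one of 0.67 ± 0.30 (limma, adjusted p = 0.471), with 1.51 in PRI-724, 0.61 in vehicle and -0.10 in quiescent cells. For Itga1 the 3 states ran in different directions, at 1.46 in PRI-724, -0.29 in vehicle and -1.87 in quiescent cells. Of 12 hepatocyte markers 4 were higher in old cells (limma), and their part in these values was not tested. Age differences within a state compare 2 arrays and have no test.

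The upstream sequences of the called subunits Itga8 and Itgb5 are shown, and that of Itga1, which was not called, because its difference after an inhibitor of beta-catenin and CBP was the next in size. Each runs 5′ to 3′ on the gene's strand over the 250 bases before a RefSeq start in GRCm38.p6, with motif matches in capitals. Windows were found for 9 of the 10 subunits. The Itga8 window is chr2:12301945-12302194, minus strand, the Itgb5 window chr16:33829415-33829664, plus strand, and the Itga1 window chr13:115101965-115102214, minus strand. The annotated Itga8 gene reaches to base 12301985, so part of its window lies inside the gene.
Itga8: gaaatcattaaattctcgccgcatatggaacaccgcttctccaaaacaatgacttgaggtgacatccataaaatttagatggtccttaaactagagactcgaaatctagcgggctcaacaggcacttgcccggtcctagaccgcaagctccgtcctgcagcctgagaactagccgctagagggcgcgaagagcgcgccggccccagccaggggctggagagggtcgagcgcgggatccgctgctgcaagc
Itgb5: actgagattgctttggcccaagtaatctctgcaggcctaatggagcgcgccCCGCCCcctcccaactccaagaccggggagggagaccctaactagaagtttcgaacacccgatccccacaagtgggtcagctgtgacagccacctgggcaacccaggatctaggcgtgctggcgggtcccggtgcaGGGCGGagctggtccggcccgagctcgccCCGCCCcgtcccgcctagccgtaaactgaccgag
Itga1: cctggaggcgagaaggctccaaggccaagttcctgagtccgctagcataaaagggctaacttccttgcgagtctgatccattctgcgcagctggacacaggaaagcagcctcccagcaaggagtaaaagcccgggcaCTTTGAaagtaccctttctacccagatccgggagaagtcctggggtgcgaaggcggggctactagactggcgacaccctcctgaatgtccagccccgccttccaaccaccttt
Both strands were searched for the TCF/LEF core CTTTGA, the TEAD core GGAATG, the AP-1 core TGANTCA, the GC box core GGGCGG and the CArG box. The Itga8 window holds no match to these letters, the Itgb5 window 3 GC boxes, starting 199, 63 and 34 bases before the start, and the Itga1 window 1 TCF/LEF core, 113 bases before it. None of the other subunit windows holds the TCF/LEF core, and its part in the Itga1 values was not tested. Among 32851 windows of the same length, 13.8% hold the TCF/LEF core, 12.6% the TEAD core, 6.75% the AP-1 core, 32.7% the GC box core and 1.47% the CArG box. G and C make up 56.4% of the Itga8, 65.2% of the Itgb5 and 57.6% of the Itga1 window, against a median of 52.4% over all windows.

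Other integrin subunits, among them those of leukocytes and platelets and further matrix receptors, gave 4 calls after PRI-724 out of 12 tested. All 4 were falls against vehicle, a comparison in which 1.93% of all tested genes fell. Itgb2, the shared beta subunit of leukocyte integrins, fell by 3.24 ± 0.32 in PRI-724 against vehicle cells (limma, adjusted p = 0.00171). Its alpha partners Itgax, Itgam and Itgal fell by 2.49 ± 0.43, 2.05 ± 0.44 and 1.57 ± 0.33, with adjusted p of 0.0205, 0.0458 and 0.0451 (limma). The list median was -0.59. Itga6, a laminin receptor subunit, rose by 1.32 ± 0.28 in vehicle against quiescent cells (limma, adjusted p = 0.0273). These 4 falls were not called without the young PRI-724 array, only Itgb2 was called after cyclic loess or quantile normalization, and Itga6 was called after neither of these normalizations.

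**Figure D3:**
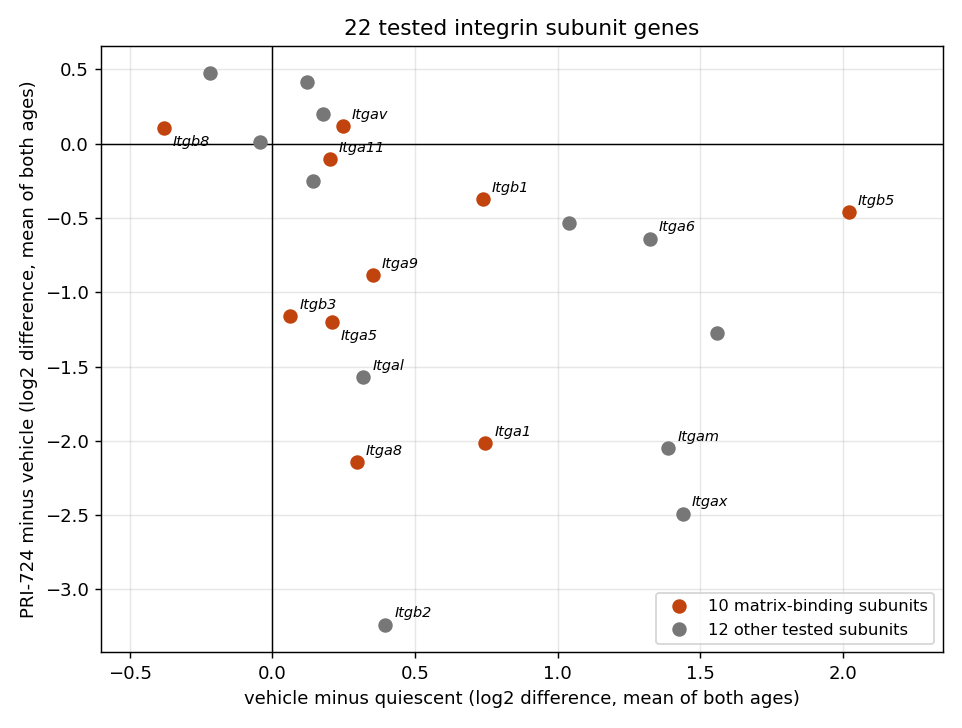
Vehicle minus quiescent (horizontal axis) and PRI-724 minus vehicle (vertical axis) log2 differences of the 10 subunits in orange and the other 12 tested integrin subunits in grey. Itga8 at -2.14 lies among the leukocyte subunits Itgb2, Itgax and Itgam at the bottom, and Itgb5 is farthest to the right at 2.02. Both axes use the vehicle arrays, so no relation between them is read.

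Macrophage and sinusoidal endothelial markers fell in the same comparison as Itga8. There, 1.93% of all tested genes fell. Of 14 macrophage markers, all tested, 10 fell in PRI-724 against vehicle cells, with a median of -2.26, led by the Kupffer cell genes Cd5l (-5.14 ± 0.51) and Vsig4 (-5.08 ± 0.33). Of 14 markers of liver sinusoidal endothelium, all tested, 13 fell, with a median of -2.48, led by Oit3 (-4.76 ± 0.35) and the Fc receptor gene Fcgr2b (-3.80 ± 0.43). The mean log2 signal of the macrophage list was 5.73 to 5.93 in PRI-724, 8.21 to 8.39 in vehicle and 8.21 to 8.84 in quiescent cells, and that of the endothelial list 6.29 to 7.03 in PRI-724, 9.23 to 9.46 in vehicle and 8.38 to 9.53 in quiescent cells. Of 11 tested stellate cell markers, 1 fell, the retinol-esterifying enzyme gene Lrat (-1.69 ± 0.31, limma, adjusted p = 0.0242), and their mean signal was 7.28 to 7.77 in PRI-724, 8.02 to 8.08 in vehicle and 7.39 to 7.44 in quiescent cells. Of 9 myofibroblast markers, 1 fell, the myosin light chain gene Myl9 (-2.41 ± 0.36, limma, adjusted p = 0.00969). The median over these 9 was -0.32 in the old and -2.30 in the young pair. Their mean signal was 8.66 in old and 6.89 in young PRI-724 cells, 8.75 to 8.94 in vehicle and 6.11 to 6.85 in quiescent cells. When the young PRI-724 array was left out, 0 markers of these lists were called in PRI-724 against vehicle cells, and after cyclic loess or quantile normalization 7 macrophage and 4 endothelial markers, Myl9 and not Lrat were called. These 3 settings were added for the list counts after seeing the data. In the main fit the hepatocyte, mesothelial and cholangiocyte lists had 0 calls in PRI-724 against vehicle cells, with medians of 0.73, 0.09 and 0.14. The part of macrophages and endothelial cells in the results for Itga8 and Itga1 was not tested.

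**Figure D4:**
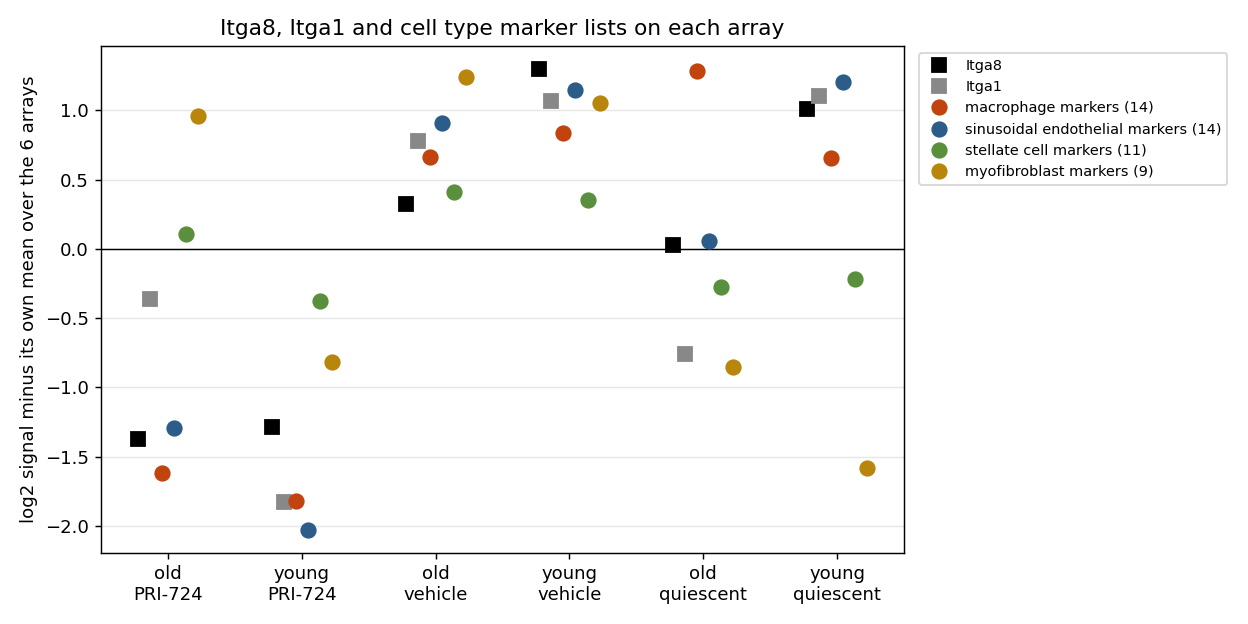
Log2 signal of Itga8 and Itga1 and the mean log2 signal of 4 marker lists, each minus its own mean over the 6 arrays (vertical axis), by array. Itga8, the macrophage list and the sinusoidal endothelial list are lowest in the 2 PRI-724 samples, and the myofibroblast list is lowest in the 2 quiescent samples.

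Among matrix ligands of these receptors, some but not all collagen, laminin and RGD protein genes rose with activation. Among all tested genes, 4.61% rose and 1.26% fell in vehicle against quiescent cells. Of 30 tested ligand genes, 12 rose and 0 fell there, with a median of 0.98. The largest were Col1a1, a chain of type I collagen (2.91 ± 0.48), Mfge8, a secreted RGD protein (1.95 ± 0.24), Fbln5, an RGD protein of elastic fibres (1.85 ± 0.33), and Lamb1, a laminin chain (1.84 ± 0.25). In PRI-724 against vehicle cells 0 ligands rose and 0 fell (limma, 8 at an unadjusted p under 0.05), with a median of -0.43. Against quiescent cells Lamb1 (1.86 ± 0.25) and Mfge8 (1.41 ± 0.24) rose. The ligands that the subunits are named for were picked after their values were seen. Fn1, which encodes fibronectin, rose by 1.20 ± 0.26 with activation (limma, adjusted p = 0.0280), while Npnt, encoding the Itga8 ligand nephronectin, differed by 0.05 ± 0.34 with activation and 0.06 ± 0.34 after PRI-724. Vtn, encoding vitronectin, went the other way with activation, at -2.13 ± 0.55, and missed the threshold (limma, adjusted p = 0.0518). Its difference was -3.44 in the old and -0.83 in the young pair. The hepatocyte marker list had medians of -2.52 in the old and -0.80 in the young pair of this comparison. The part of hepatocytes in the Vtn value was not tested. In old against young cells Tnc (tenascin-C, 1.34 ± 0.19, adjusted p = 0.0192) and Fn1 (1.22 ± 0.21, adjusted p = 0.0440) were higher by limma, and neither was called after cyclic loess, quantile normalization or without the young PRI-724 array. The count of 12 ligands with activation was 8 without the young PRI-724 array, 7 after cyclic loess and 5 after quantile normalization.

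With activation, 4.61% of all tested genes rose and 1.26% fell. Inside the cell, 9 of 35 tested adaptor and kinase genes of adhesion sites rose with activation and 0 fell, with a median of 0.51. The largest were the actin linkers Parva (1.70 ± 0.25), Tln2 (1.58 ± 0.34) and Actn1 (1.54 ± 0.24) and the scaffold Bcar1 (1.31 ± 0.27). After PRI-724, Fermt3, the kindlin of blood cells, fell by 2.40 ± 0.38 (limma, adjusted p = 0.0134) and the kinase gene Ptk2b by 1.47 ± 0.27 (limma, adjusted p = 0.0263) against vehicle, and 0 rose. Actn1 (1.39 ± 0.24) and Parva (1.34 ± 0.25) were called higher in PRI-724 than in quiescent cells too, while Parvb (-2.13 ± 0.38), Fermt3 (-2.07 ± 0.38) and Parvg (-1.27 ± 0.28) were called lower. In that comparison 13 of 14 macrophage markers were called lower as well, beside 2.43% of all tested genes. The part of macrophages in these adaptor and kinase values was not tested. The count of 9 was 4 without the young PRI-724 array, 5 after cyclic loess and 4 after quantile normalization, and Fermt3 and Ptk2b were called in none of these 3 fits for PRI-724 against vehicle.

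Of 24 tested regulators of integrin activity and trafficking, 1 rose and 1 fell in each of the first 2 comparisons. Among all tested genes, 4.61% rose and 1.26% fell in vehicle against quiescent cells, and 0.271% rose and 1.93% fell in PRI-724 against vehicle cells. The tetraspanin gene Cd151 (1.16 ± 0.28) rose and Slc3a2 (-1.05 ± 0.18), the heavy chain of an amino acid transporter that binds beta subunits, fell in vehicle against quiescent cells. In PRI-724 against vehicle cells Slc3a2 rose by 0.91 ± 0.18 and Apbb1ip, which recruits talin to integrins in leukocytes, fell by 2.20 ± 0.28 (limma, adjusted p = 0.0314 and 0.00435). Cd151 and the rise of Slc3a2 after PRI-724 were called in none of the 3 other settings, and the falls of Slc3a2 and Apbb1ip were lost only in the fit that left out the young PRI-724 array. Of 12 genes for latent TGF-beta and its partners, Tgfb3 rose by 2.07 ± 0.34 and Ltbp4, a latent TGF-beta binding protein gene, fell by 1.83 ± 0.30 with activation (limma, adjusted p = 0.0106 and 0.0107), Tgfb3 not after quantile normalization, and 0 were called after PRI-724 against vehicle or quiescent cells, with 4 at an unadjusted p under 0.05 in each (limma).

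The genes nearest in profile to the 3 widest-ranging subunits are given by Pearson's r over the 6 arrays, as a description. For Itgb5 they were Cpsf3, Clybl and Hhip, with r of 0.995, 0.994 and 0.991. For Itga1 they were Hnrnph1, Dock6 and Nrp1, with r of 0.999, 0.998 and 0.998, and for Itga8 Fermt3, Dcaf8 and Casp1, with r of 0.990, 0.987 and 0.985. Among the subunits themselves, Itga5 and Itgb3 had r of 0.982 and Itga1 and Itga9 0.977, and the lowest was -0.84 for Itgb5 and Itgb8. The 6 arrays are shared by all of these values, the genes named for each subunit were picked as the highest among all tested genes, and the 3 pairs of subunits as extremes.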

How the data were processed

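RNA of 6 pooled samples of primary mouse hepatic stellate cells was hybridised to whole-transcript arrays. The deposited values are log2 signals for each of 41345 probe sets, made by the authors with Affymetrix Expression Console and RMA per the submitters' processing notes, with no version or option given in the sources used here. Probe sets with 1 gene symbol (23521) were kept, those with several (1814) or none (16010) were not, and the brightest stood for each of 22180 genes. The lowest 30% by mean signal were left out. limma 3.58.1 (R 4.3.3) fitted age and state to all 6 arrays, with 2 residual and 7.76 prior degrees of freedom, an intensity trend and Benjamini-Hochberg adjustment over 15526 genes. The fitting script was tested on simulated data. The precision is limited by the number of arrays, 1 for each group. The members and lists were chosen with earlier results of these data known, and 196 of 208 list entries matched the array. All 10 subunits were named, with up to 4 genes of each list by size among those called, and for the 3 widest-ranging subunits the 3 genes of highest correlation. Promoter windows are RefSeq's. Alternatives were other filters, probe set means, no intensity trend, no covariate, fewer arrays, cyclic loess and quantile normalization of the tested genes, and each array left out.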

Additional observations from a re-analysis of the deposited data

Results flagged for a closer look

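Old and young pairs of arrays gave differences of opposite sign for several subunits, and in each case the difference between the ages was not tested, since each group has 1 array. In vehicle against quiescent cells the old difference exceeded the young one by 1.58 for Itga1, 0.72 for Itga5, 0.92 for Itga9, 0.49 for Itgb3 and 1.16 for Itgb8, on the log2 scale. In PRI-724 against vehicle cells it exceeded the young one by 1.67 for Itgb5, and for Itgb8 the old minus young value was -0.53. In PRI-724 against quiescent cells the old difference exceeded the young one by 3.33 for Itga1, 1.73 for Itga9 and 0.63 for Itgb8. Itga1 thus gave the widest gap between ages among these cases.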

How the results depend on the processing

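The number of subunits called, 1 each in the 3 state comparisons and 0 by age, stayed the same without a filter, with the lowest 50% left out, with probe set means and without an intensity trend. In vehicle against quiescent cells it was 0 without age as a covariate, with only the arrays of those states, after cyclic loess and after quantile normalization, and 0 to 1 with an array left out. In PRI-724 against vehicle cells it was 0 without age, 4 with only those states (Itga1, Itga5, Itga8 and Itgb3), 0 after quantile normalization and 0 to 4 with an array left out. In PRI-724 against quiescent cells it was 0 without age, 2 with only those states (Itga8 and Itgb5) and 0 to 5 with an array left out. By age it was 0 to 1 with an array left out, where Itgb5 was called without either vehicle array. Itga1, Itga5, Itga8 and Itgb3 were called in PRI-724 against vehicle cells without either quiescent array, and Itga1, Itga8 and Itgb5 without the old vehicle array. Without the old quiescent array Itga1, Itga5, Itga8, Itgb3 and Itgb5 were called in PRI-724 against quiescent cells, and Itga8 and Itgb5 without either vehicle array. Itga1 in place of Itgb5 was called in vehicle against quiescent cells without the young quiescent array. Where the old or young quiescent array was left out, the fit had 1 residual degree of freedom and an infinite prior, so genes of equal signal shared a spread. Without the old or young vehicle array the prior had 51.1 or 52.5 degrees of freedom beside 1 residual, so the spread was nearly shared.

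Over all genes, the 911 calls in vehicle against quiescent cells became 114 without a covariate, 481 with only those states, 482 after cyclic loess, 331 after quantile normalization and 318 to 1230 with an array left out. The 341 calls in PRI-724 against vehicle cells became 91 without a covariate, 965 with only those states, 103 after cyclic loess, 84 after quantile normalization and 0 to 968 with an array left out. The 577 calls in PRI-724 against quiescent cells became 217 without a covariate, 1064 with only those states and 0 to 1053 with an array left out, and the 80 by age became 0 without a covariate, 7 after cyclic loess, 12 after quantile normalization and 0 to 343 with an array left out.

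Signs turned for Itgb3 in vehicle against quiescent cells (-0.12 after cyclic loess, -0.083 after quantile normalization), for Itgb8 in PRI-724 against vehicle cells (-0.058 and -0.032), and by age for Itga9 (-0.052 and -0.020) and Itgb1 (-0.013 after cyclic loess). With an array left out, vehicle minus quiescent ran from -0.83 to 0.064 for Itgb8, -0.48 to 1.97 for Itga1, -0.37 to 0.79 for Itga5, -0.31 to 1.02 for Itga9 and -0.49 to 0.61 for Itgb3. PRI-724 minus vehicle ran from -1.52 to 0.61 for Itgb5, -0.32 to 0.53 for Itgb8 and -0.21 to 0.0020 for Itga11, and PRI-724 minus quiescent from -1.19 to 0.13 for Itga9, -0.72 to 0.17 for Itgb8 and -2.54 to 0.0026 for Itga1. Old minus young ran from -1.08 to 0.59 for Itga1, -0.041 to 1.25 for Itgb5, -0.34 to 0.53 for Itga9, -0.15 to 0.19 for Itgb1 and -0.015 to 0.84 for Itgb3. The cause of these shifts was not tested. The labels give no replicate numbers, the fit pairs the arrays by age, and the values without a covariate are those of the unpaired fit. The signal of Itga8 in PRI-724 cells, Itga11 and Itgb8 lies near the limit for testing.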
